A study of Mus musculus with 8 samples.

Results

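The S100 fused-type genes Flg, Flg2, Hrnr, Rptn, Crnn, Tchh and Tchhl1 were examined in the epidermis of mice lacking Rora in keratinocytes. Each gene was found by its symbol and Ensembl identifier, and these 7 genes were 7 of the 55416 genes in the count table. RNA-seq covered 8 libraries of dorsal epidermis from mice at postnatal day 4 (P4), 4 of control mice, labelled WT, and 4 of mice with an epidermis Rora knockout (RoraEKO), with no treatment in either group. RoraEKO mice came from a cross of Rora flox/flox mice with K14-Cre mice. The keratin 14 promoter drives Cre in basal keratinocytes, so that their descendants in the interfollicular epidermis and the hair follicle carry the deletion. The control mice are described as littermates, and the sources used here do not say which floxed alleles or Cre they carried. The epidermis was lifted off the dermis after brief heating of the skin. Libraries are named by genotype and by the letter and number of their sample title (A1, B1, C1 and C6 for control; A3, B4, C2 and C3 for RoraEKO), and the labels do not say what the letter stands for. No source says that the samples came from separate litters, and p-values measure the spread between these samples.

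S100 fused-type proteins join an S100-like calcium-binding head to a long body of tandem repeats. They are made late in keratinocyte differentiation, and transglutaminases cross-link several of them into the cornified envelope. Filaggrin, encoded by Flg, bundles keratin filaments in the granular layer and is later broken down to free amino acids that hold water in the stratum corneum. Filaggrin-2 and hornerin, encoded by Flg2 and Hrnr, are filaggrin-like, repetin (Rptn) is an envelope precursor, cornulin (Crnn) is a squamous-cell protein, and trichohyalin (Tchh) hardens the inner root sheath and the medulla of the hair. Tchhl1 encodes a relative of trichohyalin.

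In the GRCm39 assembly the genes followed one another on chromosome 3, all on the plus strand, in the order Crnn (chr3:93052094-93057126), Flg2 (chr3:93104585-93128698), Flg (chr3:93180830-93200993), Hrnr (chr3:93227056-93240877), Rptn (chr3:93301006-93306749), Tchh (chr3:93349637-93356384) and Tchhl1 (chr3:93376059-93379287). This stretch of 327.2 kb lies near one end of the epidermal differentiation complex (EDC), a cluster of genes for barrier proteins. No other protein-coding gene was annotated between the start of Crnn and the end of Tchhl1. Gaps between neighbouring genes ran from 19.7 kb (Tchh to Tchhl1) to 60.1 kb (Hrnr to Rptn).

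All 7 genes had a promoter in the RefSeq table of GRCm38.p6. Each whole promoter record, from which the 150 bases before the start site were cut, was found once on chromosome 3 of GRCm39. Rptn and Hrnr are printed because their levels differed between genotypes, and Crnn and Tchh because their levels followed each other most closely. Capitals mark the AP-1 type motif TGANTCA and the TATA box TATAAA, and every sequence reads 5′ to 3′ and ends 1 base before the RefSeq start site.
Rptn, chr3:93300856-93301005, plus strand: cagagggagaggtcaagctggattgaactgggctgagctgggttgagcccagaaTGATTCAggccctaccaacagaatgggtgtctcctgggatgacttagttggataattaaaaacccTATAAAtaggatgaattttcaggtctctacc
Hrnr, chr3:93226906-93227055, plus strand: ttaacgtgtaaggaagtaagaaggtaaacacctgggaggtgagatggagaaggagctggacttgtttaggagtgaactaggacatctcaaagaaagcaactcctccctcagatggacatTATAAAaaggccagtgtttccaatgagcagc
Crnn, chr3:93051946-93052095, plus strand: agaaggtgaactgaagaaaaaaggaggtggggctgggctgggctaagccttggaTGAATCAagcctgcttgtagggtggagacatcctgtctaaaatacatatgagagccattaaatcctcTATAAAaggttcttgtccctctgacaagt
Tchh, chr3:93349487-93349636, plus strand: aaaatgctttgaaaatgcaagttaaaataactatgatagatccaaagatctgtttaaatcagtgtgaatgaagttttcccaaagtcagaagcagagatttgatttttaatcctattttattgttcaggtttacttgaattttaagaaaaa

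Within 250 bases before the start site, on both strands, TGANTCA was found in 5 of 7 promoters, those of Crnn, Flg2, Flg, Rptn and Tchhl1, and in 6.75% of all 32851 promoters in the table. The motif is its own reverse complement, so that both strands give the same place. Its first base lay at -96 in both Rptn and Crnn, at -103 in Flg, at -87 in Tchhl1 and at -69 in Flg2, counted back from the start site. TATAAA was found in 4 of 7 (Crnn, Flg, Hrnr and Rptn) against 12.4% of all promoters. AGGTCA, the core motif bound by ROR and other nuclear receptors, was found in Rptn with its first base at -141 and in Tchhl1 at -81, where it overlapped the end of TGANTCA, against 14% of all promoters. CACGTG, the E-box of clock factors, was in 0 of 7 and in 6.02% of all promoters. Hrnr held TATAAA alone of these motifs, and Tchh held none of them in this window.

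Library totals ran from 17286903 to 26705533 counts, and 3 counts corresponded to between 0.113 and 0.196 counts per 1000000 (CPM). The 7 genes took between 1.06% and 2.82% of all counts, and the lowest count of any of them was 586 (Rptn in control B1), so that depth limited none of the values. All 7 passed the filter on low counts, which kept 13147 genes. A gene was called when its Benjamini-Hochberg adjusted p in edgeR's quasi-likelihood test was below 0.05 and its fold change was above 1.5. Of the 7 genes, 1 was called higher in RoraEKO (Rptn), 1 was called lower (Hrnr) and 5 were not called. The background was 5.51% of all tested genes called, 2.3% called higher and 3.22% called lower. Genotypes did not overlap for 2 of the 7 genes, Rptn and Hrnr, against 12.9% of all tested genes.

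**Figure D1:**
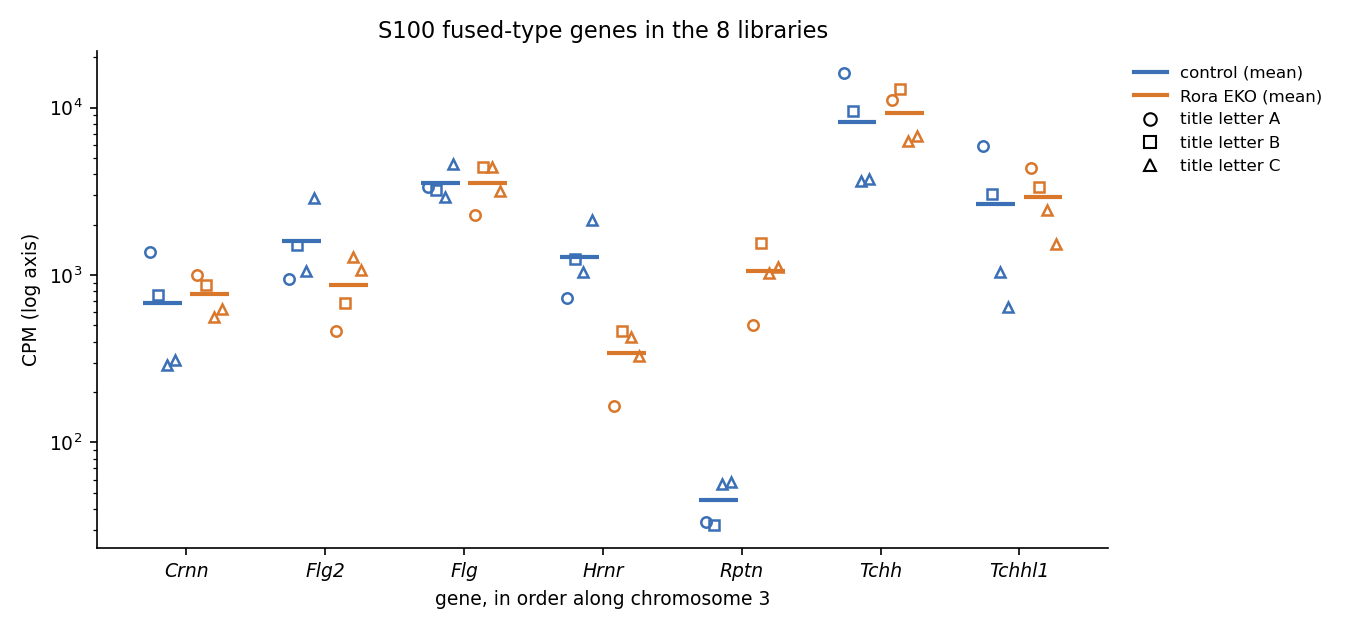
CPM of each gene in each library on a log axis, with control in blue and RoraEKO in orange. Symbols give the letter of the sample title and bars give the mean of 4 libraries. The Rptn points lie between 32.0 and 58.3 CPM in control and between 504 and 1552 CPM in RoraEKO, and the Hrnr points of the genotypes are also apart, while those of the other genes overlap.

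Rora itself did not separate the genotypes. Its gene-level CPM was 212 ± 66.6 (SD, n = 4) in control and 196 ± 34.6 (SD, n = 4) in RoraEKO (log2 fold change -0.11, adjusted p = 0.877 in edgeR's quasi-likelihood test). Counts per gene do not resolve single exons, so this level does not check a deletion within the gene. Xist was at 416 CPM in control C1 and at 527 CPM in control C6, and the other libraries carried Y-linked transcripts, so that in letter C sex and genotype cannot be told apart. Of the markers of other tissue, 5 dermal fibroblast genes summed to 1.23 to 10.1 CPM, while Krt1, a keratin of the suprabasal epidermis, had 29965 ± 8117 CPM in control. The basal keratins were low in this material, with Krt5 at 172 ± 79.6 and Krt14 at 132 ± 60.9 CPM in control. Fewer cells of a type and less RNA per cell cannot be told apart in these bulk samples.

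Rptn had the largest difference of the 7. It was at 33.3, 32.0, 56.7 and 58.3 CPM in control A1, B1, C1 and C6. In RoraEKO A3, B4, C2 and C3 it was at 504, 1552, 1024 and 1121 CPM. Every RoraEKO library lay above every control library, and the lowest of the RoraEKO libraries was A3. The mean rose from 45.1 ± 14.4 to 1050 ± 430 CPM (SD, n = 4 each), a fold change of 23.3 (log2 fold change 4.54, SE 0.415, adjusted p = 0.000281, edgeR's quasi-likelihood test). Within title letters, the difference in mean log2 CPM was 3.92 for A, 5.59 for B and 4.22 for C. Rptn was called in 20 of 20 alternatives, with log2 fold changes from 4.22 to 5.06 and adjusted p from 3.31e-38 to 0.0457. Its count was free of one ambiguity of the family, since none of the 100-base words of its transcript recurred within it or in another gene's transcript.

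Transcripts annotated over Rptn held few counts. Gm37857, a short annotation on the same strand, had 0 to 3 counts per control library and 0 to 29 per RoraEKO library. Gm37245, a long non-coding RNA on the opposite strand that spans Hrnr, Rptn and Tchh, had 8 to 27 counts per library. The library kit keeps strand, but the strand setting of the counting is not given in the sources used here. Rptn itself held 586 to 1552 counts in control libraries and 7722 to 37764 in RoraEKO libraries.

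Hrnr, next to Rptn on the chromosome, went the other way. It was at 729, 1244, 1036 and 2128 CPM in control A1, B1, C1 and C6. In RoraEKO A3, B4, C2 and C3 it was at 164, 460, 425 and 329 CPM. The highest RoraEKO library lay below the lowest control library, and control C6 stood highest of all. The mean fell from 1284 ± 601 to 345 ± 132 CPM (SD, n = 4 each), 3.73-fold lower (log2 fold change -1.90, SE 0.467, adjusted p = 0.0211, edgeR's quasi-likelihood test). Within title letters the difference in mean log2 CPM was -2.15 for A, -1.43 for B and -1.99 for C. Hrnr was lower in RoraEKO in 20 of 20 alternatives but called in 14. Its adjusted p in edgeR's quasi-likelihood test was 0.0578 without control B1, 0.0547 without RoraEKO C2 and 0.0728 without RoraEKO C3, with log2 fold changes of -1.91, -1.94 and -1.87. With the Xist level as a covariate the log2 fold change was -1.49 (adjusted p = 0.104), in the 6 libraries with Y-linked expression it was -1.47 (adjusted p = 0.113), and in the 4 libraries of letters A and B it was -1.59 (adjusted p = 0.396), all from edgeR's quasi-likelihood test.

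Flg2 lay between Hrnr and Flg in its difference. It was at 950, 1503, 1058 and 2896 CPM in control A1, B1, C1 and C6. RoraEKO A3, B4, C2 and C3 had 460, 680, 1278 and 1076 CPM. RoraEKO C2 and C3 overlapped the control libraries, and control C6 was again the highest. The means were 1602 ± 895 and 873 ± 371 CPM (SD over 4 libraries each; log2 fold change -0.88, SE 0.492, adjusted p = 0.315 in edgeR's quasi-likelihood test), and the difference did not pass the cutoff. The log2 fold change was below 0 in 20 of 20 alternatives, from -1.06 to -0.40, and none called it (lowest adjusted p = 0.0872).

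Flg was at 3363, 3231, 2912 and 4617 CPM in control A1, B1, C1 and C6. The RoraEKO libraries, in the order A3, B4, C2 and C3, had 2292, 4407, 4408 and 3158 CPM. The highest and lowest libraries differed 1.59-fold in control and 1.92-fold in RoraEKO, and the genotypes overlapped through most of their range. The means were 3531 ± 749 and 3566 ± 1034 CPM (SD over 4 libraries each; log2 fold change 0.01, SE 0.268, adjusted p = 0.99 in edgeR's quasi-likelihood test). Alternatives moved the log2 fold change between -0.10 and 0.23, and none called it.

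The 3 filaggrin-type genes are repetitive, and this bears on how their reads were placed. Words of 100 bases that occur more than once within the longest transcript made up 71.3% of Flg, 67.3% of Hrnr and 55.5% of Flg2, against 2.43% of Tchh and 0% of Crnn, Rptn and Tchhl1. No such word was shared with the transcripts of another gene for any of the 7. A read from a repeat therefore had several places within its own gene and none at this length in another annotated transcript. Variation in repeat number between the mouse strains and the assembly was not examined here.

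Tchh, Tchhl1 and Crnn varied more between libraries of one genotype than between the genotypes. For these 3 of the 7 genes every library of letters A and B lay above every library of letter C, as it did for 5.69% of all tested genes. Tchh was at 16040, 9617, 3645 and 3736 CPM in control A1, B1, C1 and C6. In RoraEKO A3, B4, C2 and C3 it was at 11171, 12889, 6339 and 6784 CPM. In each genotype the libraries of letters A and B were above those of letter C, with 9617 to 16040 CPM against 3645 to 6784 CPM. The means were 8260 ± 5891 and 9296 ± 3239 CPM (SD over 4 libraries each; log2 fold change 0.17, SE 0.586, adjusted p = 0.923 in edgeR's quasi-likelihood test). Tchh alone took between 0.373% and 1.59% of all counts of a library.

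Tchhl1 was at 5943, 3060, 1040 and 646 CPM in control A1, B1, C1 and C6. RoraEKO A3, B4, C2 and C3 held 4378, 3348, 2442 and 1528 CPM. Among control libraries it had the widest range of the 7 genes, 9.19-fold, while in RoraEKO its range was 2.86-fold against 3.08-fold for Rptn. The letters were apart here too (3060 to 5943 against 646 to 2442 CPM). The means were 2672 ± 2423 and 2924 ± 1221 CPM (SD over 4 libraries each; log2 fold change 0.13, SE 0.797, adjusted p = 0.955 in edgeR's quasi-likelihood test).

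Crnn was at 1368, 765, 289 and 309 CPM in control A1, B1, C1 and C6. In RoraEKO A3, B4, C2 and C3 it was at 1003, 871, 559 and 630 CPM. It split by letter as Tchh did, with 765 to 1368 CPM in letters A and B and 289 to 630 CPM in letter C. The means were 683 ± 507 and 766 ± 207 CPM (SD over 4 libraries each; log2 fold change 0.17, SE 0.575, adjusted p = 0.919 in edgeR's quasi-likelihood test). In the 4 libraries of letter C taken alone, Crnn was called higher in RoraEKO (log2 fold change 0.99, adjusted p = 0.0414, edgeR's quasi-likelihood test). In those libraries both controls were the ones with Xist, and the summed inner root sheath keratins were 5004 and 4176 CPM in control against 8542 and 8907 CPM in RoraEKO. Within letter A the difference in mean log2 CPM of Crnn was -0.45 and within letter B it was 0.19.

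The most abundant keratins of the inner root sheath split by letter as well. The 8 genes of that list (Krt25, Krt26, Krt27, Krt28, Krt71, Krt72, Krt73 and Krt74) summed to 15867 to 33761 CPM in libraries of letters A and B and to 4176 to 8907 CPM in those of letter C. Control A1 was highest in this sum as in Tchh, Tchhl1 and Crnn. By genotype the sum ran from 4176 to 33761 CPM in control and from 8542 to 21668 CPM in RoraEKO, and 0 of 8 genes were called in edgeR's quasi-likelihood test or by DESeq2, or had an unadjusted p below 0.05 (median log2 fold change -0.09). The sum was mostly Krt71, Krt27 and Krt25, whose control means were 7934 ± 7446, 3326 ± 2922 and 2414 ± 2300 CPM. The letters were apart for these 3 of the 8 genes, against the 5.69% of all tested genes, and overlapped for the other 5. The 9 hair shaft keratins summed to 2969 to 11429 CPM in control and to 5497 to 9955 CPM in RoraEKO, 0 of 9 had the letters apart in this way, and 0 of 9 were called by either tool or had such a p (median 0.37). Whether the share of follicle cells set the levels of Tchh, Tchhl1 and Crnn was not tested.

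**Figure D2:**
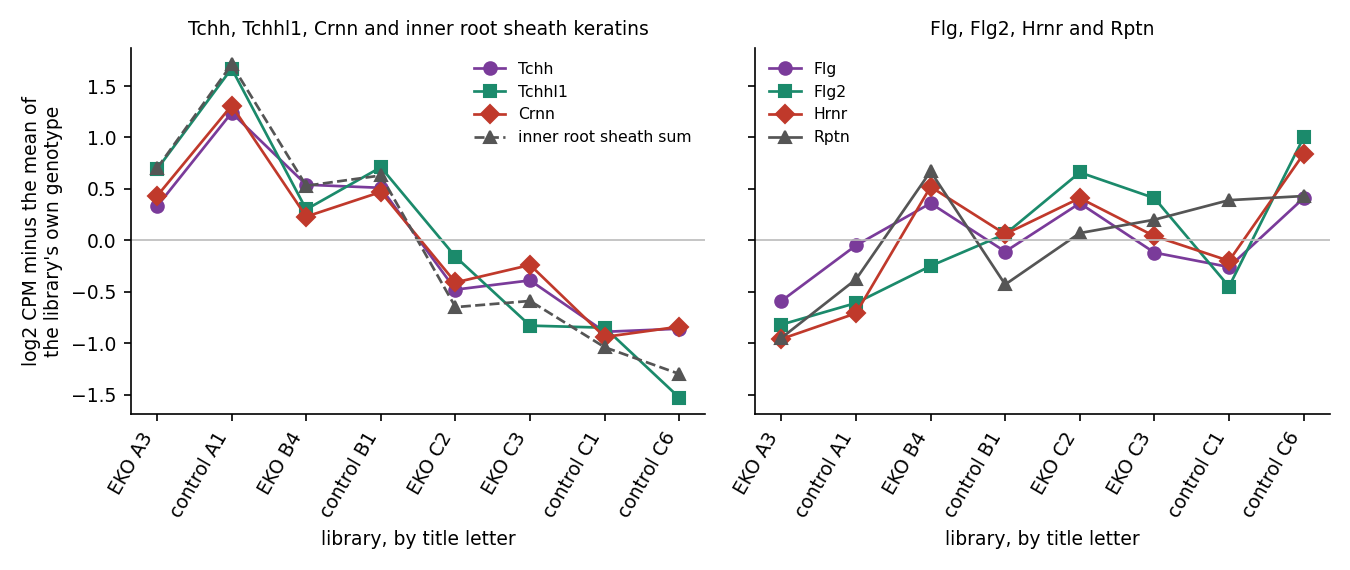
Each library's log2 CPM minus the mean of its own genotype, with libraries ordered by the letter of their sample title. On the left Tchh, Tchhl1, Crnn and the summed inner root sheath keratins lie above 0 in the 4 libraries of letters A and B and below 0 in the 4 of letter C, and on the right Flg, Flg2, Hrnr and Rptn do not split this way.

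Crnn and Tchh kept nearly the same proportion in all 8 libraries. The log2 ratio of Crnn to Tchh, both per kb of exon, lay between -2.24 and -1.79, a range of 0.46, although Tchh itself ranged from 3645 to 16040 CPM. The ratio of Tchhl1 to Tchh had a range of 1.18. Among all other tested genes, Crnn had the profile nearest to that of Tchh, with a mean absolute difference of 0.11 in log2 CPM over the 8 libraries after each gene was centred on its control mean. The nearest to Crnn was likewise Tchh at 0.11, followed by S100a8 (0.11) and Mme (0.13). After Crnn, the nearest to Tchh were Tmc8 (0.13) and Pgm2 (0.13). Tchhl1 was nearest to Otop2 (0.11), Pinlyp (0.12) and Hmox1 (0.16), with Tchh at rank 48 and Crnn at rank 53.

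The filaggrin-type genes had other near profiles, on the same measure. Flg was nearest to Krt78 (0.10), Ccdc120 (0.10) and Map3k8 (0.11), none of them called. Flg2 was nearest to Dnaja4 (0.16), Slc15a1 (0.18) and Arsa (0.20). Hrnr was nearest to Calcb (0.23), Gm2762 (0.24) and Mfsd14b (0.24), whose log2 fold changes were -1.96, -2.07 and -2.22. Flg2 was the member most like Hrnr, at rank 211 with a difference of 0.59. Rptn was nearest to Papss2 (0.54), Spink12 (0.56) and Slc7a11 (0.56), with log2 fold changes of 4.63, 4.93 and 4.11. The nearest profile to Rptn was thus less close than for the other 6 genes. Spink12 was at 0.0734 ± 0.0659 CPM in control and at 2.46 ± 1.42 CPM in RoraEKO. Its fold change and its profile, which was centred on the control mean, therefore rest on very few control counts.

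Levels of different genes are compared here as CPM per kb of the union of annotated exons. In control, Tchh (1418 ± 1012) and Tchhl1 (1292 ± 1172) were the most abundant, followed by Crnn (366 ± 272), Flg (188 ± 39.8), Hrnr (115 ± 53.7), Flg2 (77.0 ± 43.0) and Rptn (10.9 ± 3.46; SD, n = 4 each). Each of these genes overlapped the next in its range over the 4 libraries, except that Rptn was below every other gene in each control library. In RoraEKO the order was Tchh (1596 ± 556), Tchhl1 (1414 ± 590), Crnn (411 ± 111), Rptn (253 ± 104), Flg (189 ± 54.9), Flg2 (42.0 ± 17.8) and Hrnr (30.8 ± 11.8; SD, n = 4 each). Rptn overlapped both Crnn and Flg there, Tchh overlapped Tchhl1 and Flg2 overlapped Hrnr, while Tchhl1 lay above Crnn and Flg above Flg2 without overlap. The level of Flg depends on the length used. Its longest transcript annotated as coding has 1488 bases, against 18829 bases of all exons. On the coding length Flg was at 2373 ± 503 in control and 2397 ± 695 in RoraEKO. The longest Flg transcript of any type has 14497 bases, so that the higher level rests on a short coding annotation.

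Ratios between genes of the family are given within single libraries. That of Rptn to Hrnr had to differ between genotypes, since one gene was called higher and the other lower without overlap, and its values are a description. Per kb of exon, the log2 ratio of Rptn to Hrnr lay between -3.85 and -2.76 in control and between 2.70 and 3.20 in RoraEKO. On the linear scale Rptn was 0.0695 to 0.148 times Hrnr in control and 6.50 to 9.19 times Hrnr in RoraEKO. The log2 ratio of Hrnr to Flg lay between -1.45 and -0.37 in control and between -3.05 and -2.51 in RoraEKO, and did not overlap. The log2 ratio of Hrnr to Flg2 lay between 0.45 and 0.87 in control and between -0.81 and 0.33 in RoraEKO, and was also apart. That of Flg2 to Flg overlapped, at -1.97 to -0.82 and -2.84 to -1.70. These ratios carry no test, because the genes compared were chosen with their differences known.

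As a share of the summed CPM per kb of the 7 genes, Rptn went from 0.12% to 0.857% in control libraries to 2.5% to 9.79% in RoraEKO libraries. Hrnr had 0.979% to 11.1% in control and 0.303% to 1.21% in RoraEKO, and these ranges overlapped since control A1 was at the low end. Control A1 had large Tchh and Tchhl1 levels and also the lowest Hrnr level of the control libraries, at 65.2 CPM per kb. Crnn had 9.70% to 11.0% in control and 9.38% to 12.2% in RoraEKO. Tchh and Tchhl1 together made up 55.9% to 84.5% of the sum with exon-union lengths. With the longest coding transcripts, Flg counts as 1488 bases, although its longest transcript of any type has 14497. On these lengths Tchh and Tchhl1 together made up 20.9% to 64.4% and Flg 24.6% to 67.9%. Rptn made up 0.0917% to 0.403% in control and 1.95% to 5.73% in RoraEKO. The Hrnr ranges, 0.746% to 4.16% and 0.234% to 0.646%, no longer overlapped on these lengths.

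**Figure D3:**
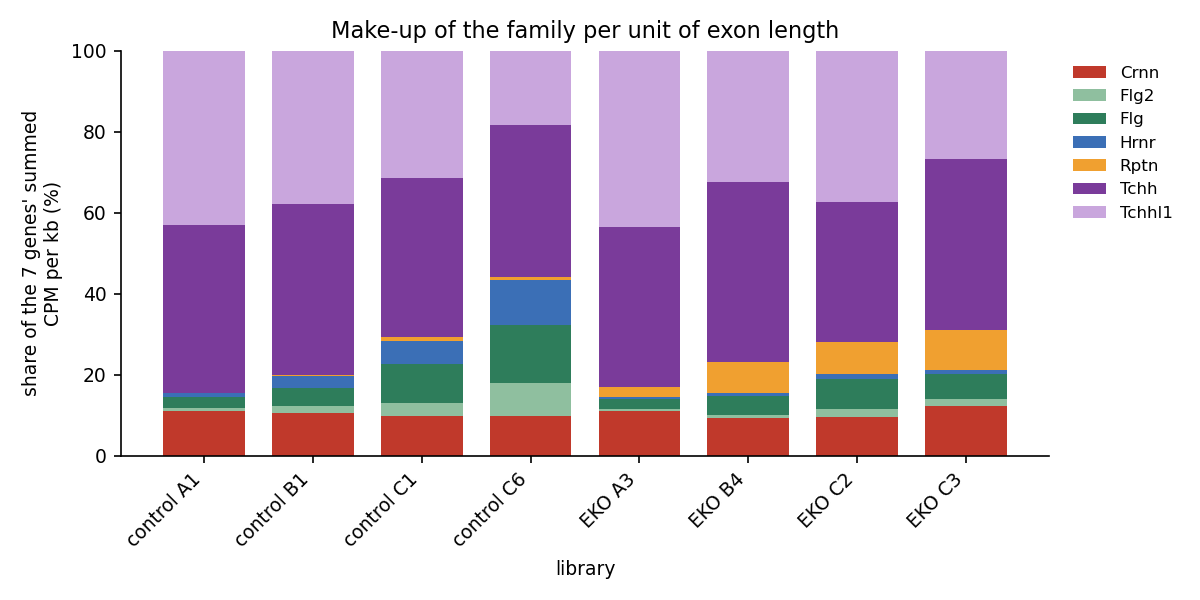
Share of each gene in the summed CPM per kb of exon of the 7 genes, in percent, for each library, with lengths from the union of annotated exons (with coding transcript lengths the Flg share is larger). The orange Rptn segment is at most 0.857% in the control libraries and between 2.5% and 9.79% in the RoraEKO libraries, and the blue Hrnr segment is at most 1.21% in RoraEKO.

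The genes next to the 7 were also read. S100a11, a small S100 gene 35.1 kb after Tchhl1, was at 673 ± 163 CPM in control and 679 ± 107 CPM in RoraEKO (SD, n = 4 each). Tdpoz8, 69.3 kb before Crnn, was at 0.93 ± 0.462 and 1.04 ± 0.234 CPM. Gm5278, 8.6 kb before Tchh, was at 8.56 ± 7.8 and 7.85 ± 3.03 CPM, and Gm18432, between Flg2 and Flg, was at 0.468 ± 0.422 and 0.801 ± 0.47 CPM. None of these 4 was called in edgeR's quasi-likelihood test. Rplp0-ps1, a processed pseudogene within Flg, had 1 to 17 counts per library.

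From S100a1 to S100a10, which bound the EDC, 69 genes were tested, of which 62 are not S100 fused-type genes. Of these 62, 22 were called higher in RoraEKO and 0 were called lower in edgeR's quasi-likelihood test. Of all tested genes, 2.3% were called higher and 3.22% lower. Lce1m, a late envelope gene with a log2 fold change of -0.99, was the 1 lower gene of the 62 with an unadjusted p below 0.05, and DESeq2 called it. The median log2 fold change was 0.70 for the 62 genes, 0.13 for the 7 S100 fused-type genes and -0.04 for all tested genes. Hrnr was therefore the 1 tested gene of the EDC that was called lower in edgeR's quasi-likelihood test with all 8 libraries.

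**Figure D4:**
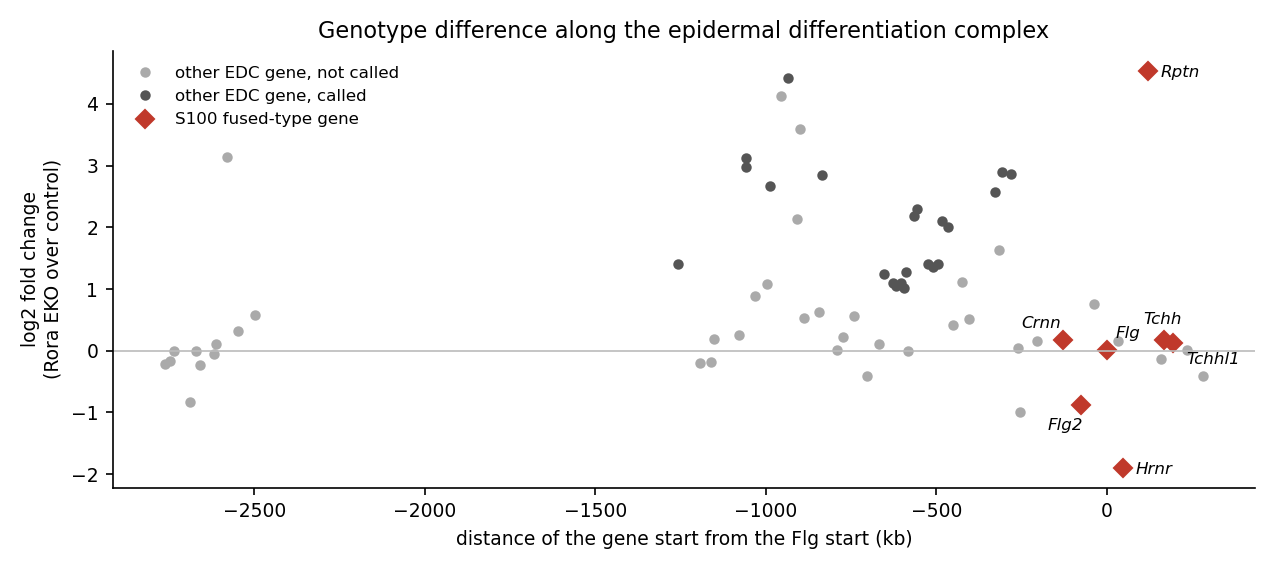
Log2 fold change of RoraEKO over control for each tested gene of the EDC against the distance of its start from that of Flg, in kb. Red diamonds are the 7 S100 fused-type genes, dark dots other genes that were called and light dots other genes that were not. Rptn lies at 4.54 and Hrnr at -1.90, with Flg2, Flg, Crnn, Tchh and Tchhl1 between them.

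Genes for the processing and breakdown of filaggrin were read next, since the protein is cut after it is made. Of 14 such genes, 0 were called in edgeR's quasi-likelihood test (3 had an unadjusted p below 0.05, and DESeq2 called 1, Casp14), and their median log2 fold change was 0.07 against -0.04 for all tested genes. Asprv1, the protease that cuts the linkers of profilaggrin, had 4542 ± 884 CPM in control and 4356 ± 844 CPM in RoraEKO. Casp14, the caspase of the stratum corneum that degrades filaggrin, had 1476 ± 209 and 2296 ± 263 CPM (log2 fold change 0.64, SE 0.127, adjusted p = 0.0717, edgeR's quasi-likelihood test). Every RoraEKO library lay above every control library for Casp14, and the genotypes did not overlap for 12.9% of all tested genes. Hal, which turns the histidine of filaggrin into urocanic acid, had 934 ± 305 and 801 ± 162 CPM. Both peptidylarginine deiminases of the list, which citrullinate filaggrin and trichohyalin, split by title letter as Tchh did, as did 5.69% of all tested genes. Padi1 was at 521 to 891 CPM in letters A and B and 149 to 380 CPM in letter C, and Padi3 at 321 to 813 and 166 to 314 CPM. The split was not particular to them. Ctsh of the same list was at 121 to 182 and 91.1 to 119 CPM. Cdsn, an envelope and granular layer partner, was at 3076 to 3711 and 1284 to 2645 CPM.

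Among 12 partners in the envelope and the granular layer, 11 were tested, 1 was called higher and 0 lower in edgeR's quasi-likelihood test (3 had an unadjusted p below 0.05, all higher), and the median log2 fold change was 0.41. The gene called was Tgm5, an epidermal transglutaminase, which rose from 35.2 ± 6.35 to 62.4 ± 5.44 CPM (log2 fold change 0.83, SE 0.151, adjusted p = 0.0098, edgeR's quasi-likelihood test) and was called in 17 of 20 alternatives. The other transglutaminases of the list, Tgm1 and Tgm3, had log2 fold changes of 0.70 and 0.46 and were not called. Loricrin, the main protein of the mouse envelope, was at 4233 ± 411 and 3673 ± 801 CPM. Krt1 and Krt10, the keratins that filaggrin binds, were at 29965 ± 8117 and 48566 ± 3699 CPM and at 23895 ± 4631 and 37714 ± 5663 CPM (log2 fold changes 0.70 and 0.66), and neither passed the cutoff. DESeq2 called 5 genes of this list, 4 higher (Tgm5, Tgm1, Krt1 and Krt10) and 1 lower (Krt2).

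Of 19 transcription regulators of late differentiation, 0 were called higher and 1 lower in edgeR's quasi-likelihood test, and the median log2 fold change was 0.19. An unadjusted p below 0.05 was found for 6 of the 19, 4 higher and 2 lower, and DESeq2 called 1, Gata3. Gata3, a regulator of barrier genes, fell from 126 ± 36.3 to 74.3 ± 8.64 CPM (log2 fold change -0.77, SE 0.209, adjusted p = 0.0493, edgeR's quasi-likelihood test). That value lay at the cutoff, and Gata3 was called in 7 of 20 alternatives (adjusted p from 0.00473 to 0.434). Leaving out any of control A1, B1 and C1 or RoraEKO A3, B4, C2 and C3 left none of the 19 called lower. The most abundant regulators were Klf4, with 654 ± 44.2 and 788 ± 144 CPM, Grhl1, with 459 ± 38.4 and 394 ± 20.3 CPM, and Zfp750, with 262 ± 24 and 307 ± 37.5 CPM, none of them called.

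Markers of other cell types in the sheet gave the following sums, with 0 genes called in each of these lists in edgeR's quasi-likelihood test. An unadjusted p below 0.05 was found for 1 spinous, 1 granular, 1 neutrophil, 3 melanocyte and 3 erythroid genes, and DESeq2 called 2 spinous genes, 1 granular and 1 neutrophil gene. The 3 spinous genes (Krt1, Krt10 and Krtdap) summed to 39645 to 66480 CPM in control and 80946 to 101181 CPM in RoraEKO, which did not overlap. Krt1 and Krt10 carried this sum, while Krtdap had 3282 ± 393 CPM in control and 2590 ± 169 CPM in RoraEKO (log2 fold change -0.34, adjusted p = 0.361 in edgeR's quasi-likelihood test). The 5 granular genes, Flg among them, summed to 9055 to 12297 and 8798 to 13053 CPM, and the 4 basal genes to 150 to 465 and 187 to 1135 CPM. T cell genes summed to 10.8 to 27.8 and 8.42 to 41.0 CPM, Langerhans cell genes to 201 to 262 and 199 to 249 CPM, and skeletal muscle genes to 4.50 to 8.41 and 5.54 to 8.34 CPM. Most of the Langerhans cell sum was Epcam, at 157 ± 45.4 CPM in control and 176 ± 25.4 CPM in RoraEKO. Cd207 was at 1.77 ± 1.02 and 1.25 ± 0.653 CPM, and Cd74 at 64.9 ± 33.2 and 49.0 ± 5.79 CPM. The log2 fold changes of Cd207 and Cd74 were -0.47 and -0.40, against 0.16 for Epcam. Mylpf carried the skeletal muscle sum, at 5.35 ± 1.39 and 5.89 ± 0.859 CPM. Melanocyte genes summed to 21.7 to 49.3 and 15.6 to 28.5 CPM, and erythroid genes to 44.0 to 308 and 116 to 969 CPM, with overlap in both. The 4 neutrophil markers summed to 4.64 to 19.8 CPM in control and 15.9 to 71.0 CPM in RoraEKO. Most of the upper end was S100a9 in RoraEKO B4, at 60.9 CPM, and S100a9 had means of 2.38 ± 1.56 and 21.2 ± 26.7 CPM (log2 fold change 3.14, adjusted p = 0.061 in edgeR's quasi-likelihood test), was called by DESeq2 (adjusted p = 0.00823) and is also made by keratinocytes. Ly6g and Elane, the neutrophil-specific markers of the list, had 3 counts or fewer in every library. The part of these cells in the levels of Rptn and Hrnr was not tested.

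**Figure D5:**
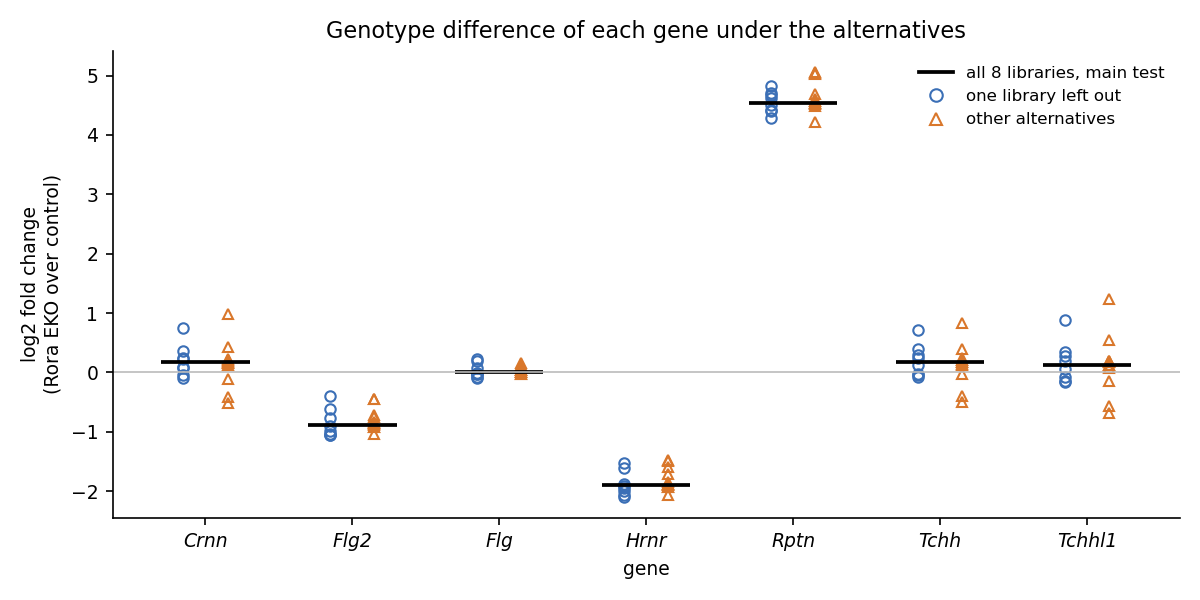
Log2 fold change of RoraEKO over control for each gene, with all 8 libraries (black bar), with one library left out (blue circles) and under the other alternatives (orange triangles). Rptn stays between 4.22 and 5.06, Hrnr between -2.09 and -1.47 and Flg2 below 0, while Crnn, Flg, Tchh and Tchhl1 fall on both sides of 0.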

How the data were processed

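RNA was extracted with RNeasy columns from P4 epidermis and made into stranded poly(A) libraries. The authors mapped the reads to GRCm39 with STAR 2.5.3a and estimated counts per gene with RSEM, per the labels and the study's methods, and they deposited the expected counts of 55416 genes without scaling. The release of their gene annotation is not given in the sources used here. Symbols and coordinates came from GENCODE release 39, which held 54749 of the identifiers, and promoters from RefSeq (GRCm38.p6).

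Expected counts were rounded, filtered with filterByExpr (13147 genes kept), scaled with TMM factors and tested with edgeR 4.0.16 (quasi-likelihood test, legacy form, R 4.3.3) over 4 control and 4 RoraEKO libraries, without covariates. Calls needed an adjusted p (Benjamini-Hochberg, all tested genes) below 0.05 and a fold change above 1.5. CPM used TMM-scaled totals. Standard errors refer to the difference between genotype means on the log2 scale (prior count 2). The script was tested on simulated data.

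Alternatives were RLE factors, library size alone, DESeq2 1.42.0, the non-legacy form, a filter of 1 count in all, a filter of 10 counts in each library, the title letter as a block, Xist as a covariate, libraries with Y-linked expression, letter C libraries, each library left out in turn and, added after seeing the data, the inner root sheath level as a covariate and letters A and B alone. Named genes were the 7 genes, Rora, called genes and the 3 with the highest control mean CPM of each partner list and of the inner root sheath list, the 3 nearest profiles, chromosomal neighbours and overlapping genes. Padi1, Padi3, Ctsh, Cdsn, Tgm1, Tgm3, Lce1m, Furin, Stat3, Krt2, Krt5, Krt14, Krtdap, Epcam, Cd207, Cd74, Mylpf, S100a9, Ly6g and Elane were named after their values were seen. The genes and lists were chosen with earlier results of these data known.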

Additional observations from a re-analysis of the deposited data

How the results depend on the processing

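Rptn kept its direction and its call in all 20 alternatives, and Hrnr and Flg2 kept their direction in all 20. In letter C libraries 2 of the 7 genes were called higher. With Xist as a covariate, in libraries with Y-linked expression and in letters A and B alone 0 were called lower, and 0 to 1 when one library was left out. The cause was not tested. Crnn, Flg, Tchh and Tchhl1, which were not called, changed sign in some alternatives. With Xist as a covariate the log2 fold changes of Crnn, Tchh and Tchhl1 were -0.51, -0.50 and -0.69, in libraries with Y-linked expression -0.42, -0.40 and -0.56, and in letters A and B alone -0.11, -0.02 and -0.15. Flg was at -0.03 with library size alone and at -0.02 with the title letter as a block. When each library was left out in turn, Crnn ran from -0.09 to 0.75, Flg from -0.10 to 0.23, Tchh from -0.07 to 0.71 and Tchhl1 from -0.16 to 0.89. Over all genes, 12 were called higher and 24 lower in letters A and B alone, 147 and 167 in libraries with Y-linked expression, 182 and 290 with Xist as a covariate, and 518 and 573 by DESeq2. Library size alone shifted the median of all genes to -0.097. Both genotypes share the title letters, which the labels do not tie to a litter or batch. With the letter as a block 420 genes were called higher and 579 lower, with Hrnr among those lower (adjusted p = 0.00254). The deviations from the genotype means of same-letter libraries correlated across genes at 0.48 for A and 0.05 for B.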

Other observations

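Furin, a protease of the profilaggrin head, had 109 ± 39.4 CPM in control and 61.1 ± 13.9 CPM in RoraEKO (log2 fold change -0.83, adjusted p = 0.123 in edgeR's quasi-likelihood test). It was called lower with the title letter as a block (-0.79, adjusted p = 0.0206), with Xist as a covariate (-1.20, adjusted p = 0.0302), without control C1 (-1.02, adjusted p = 0.0419) and with the inner root sheath level as a covariate (-0.92, adjusted p = 0.0054), all in edgeR's quasi-likelihood test. Casp14 was called higher in 3 of 20 alternatives, with log2 fold changes from 0.58 to 0.80 over all of them. Stat3 had an adjusted p of 0.0488 in edgeR's quasi-likelihood test with 76 ± 12.7 and 111 ± 5.81 CPM, below the fold change cutoff (log2 fold change 0.55). Krt2 was at 0.662 ± 0.445 CPM in control and at 3 counts or fewer in every RoraEKO library. It did not pass the filter on low counts, and it was called lower by DESeq2 (adjusted p = 0.013) and in edgeR's quasi-likelihood test once every gene with 1 count or more was kept (adjusted p = 0.0453). Furin, Stat3 and Krt2 were singled out after their values were seen.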
